A study of Mus musculus with 30 samples.

Results

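The 10 genes followed here encode serum proteins of the acute phase response and were read in mouse liver: the serum amyloid A genes Saa1, Saa2, Saa3 and Saa4, the orosomucoid genes Orm1 and Orm2, the lipocalin gene Lcn2, and Lbp, Apcs and Hp. They were picked by symbol, and all 10 were found among the 17990 rows of the deposited count table. The 30 liver libraries came from ICR offspring aged 10 weeks, with 3 libraries in each of 10 groups and 5 groups in each sex. A liver, female or male named singly below stands for a single library. Whether libraries of the same group came from separate animals was not tested. Their dams had drunk water holding 2,4-BPS, BPSIP, BPS or E2 at 10 ng/mL, or water without a chemical. All dams, controls included, took in 0.001% ethanol, the solvent. Intake was held near 5 µg per kg body weight per day for about 40 days, covering pregnancy and nursing until weaning, in 8 dams per group. Offspring were taken at random from litters of different dams, and litter was not labelled. BPS is bisphenol S, a phenolic sulfone used in place of bisphenol A. 2,4-BPS is its positional isomer with a hydroxyl group moved on a ring, BPSIP carries an isopropyl ether in place of a hydroxyl group of BPS, and E2 is the hormone estradiol. The series asks how this perinatal exposure bears on the offspring's gene expression.

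In the acute phase response, cytokines such as interleukin-6 and interleukin-1 reach hepatocytes, where the transcription factors STAT3, C/EBP and NF-kB raise the output of a set of secreted proteins. In mice SAA1 and SAA2 are the main inducible serum amyloid A proteins and travel on high-density lipoprotein, SAA3 is made in macrophages and adipocytes as well as in liver, and SAA4 is regarded as the constitutive member. Orosomucoids are glycoproteins that carry drugs and lipids, LCN2 withholds iron from bacteria by binding their siderophores, LBP hands lipopolysaccharide to CD14, serum amyloid P (Apcs) is the pentraxin that serves as a main acute phase protein in mice, and haptoglobin (Hp) captures free haemoglobin.

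Libraries held 29711711 to 37719069 counts, so that 1 count in the smallest equals 0.0337 CPM, the count scaled to a common library size. Levels below are CPM scaled by TMM factors, a correction for library composition. FPKM, which divides by gene length, is used wherever genes are compared with each other. All 10 hepatocyte markers had counts in every group, and albumin averaged 39325 to 101605 CPM. The 3 libraries labelled male control went against their label in part. Their Y-linked genes summed to 84.7 to 95.3 CPM, against 131 to 169 CPM in the exposed males and at most 0.543 CPM in the females. Their 10 female-specific liver genes summed to 2841 to 3277 CPM, against 12.4 to 42.0 CPM in the exposed males and 6367 to 6629.6 CPM in the female controls. For the 10 genes, a comparison of exposed males with them is therefore given beside a comparison with the mean of the other 3 exposed male groups. Changes of other genes and gene lists in males are given against these doubtful libraries only. Comparisons within females do not use these libraries. Comparisons between exposed groups that involve males take no level from them but share a fit with them. The gene filter, scaling and spread behind those standard errors and p-values thus include these libraries. Fits of the compared groups alone were among the alternatives. Within a sex the 4 exposures share the same 3 controls, so their comparisons with control are not independent of each other.

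Per unit length, Hp was the most abundant of the 10 transcripts in 9 of the 10 groups, with Orm1 next. The exception was male E2, where Saa2 (10632 FPKM) and Saa1 (7456 FPKM) stood above Hp (7260.3 FPKM) and Orm1 (4641 FPKM). The deposited FPKM imply a length of 1029 bases for Saa1 and 609 for Saa2, while the transcripts of the GENCODE annotation have 609 and 606 bases. At GENCODE lengths, a check chosen after seeing the data, Hp and Orm1 led in the same 9 groups, and male E2 ran Saa1, Saa2, Hp, Orm1. Together the 10 genes took 3.19% of all counts in male E2 livers (range 3.08 to 3.26%). In the other 9 groups their mean share lay between 0.407% in male BPSIP and 0.763% in male BPS. The genes differed in how far they ranged over the groups. The highest group mean exceeded the lowest 612-fold for Saa2, 262-fold for Saa1, 249.8-fold for Lcn2 and 205-fold for Orm2, and 23.4-fold for Saa3. Orm1, Hp, Apcs, Saa4 and Lbp ranged by 6.58-, 4.87-, 4.39-, 3.73- and 3.03-fold. Male E2 was the highest group for 9 genes, and the libraries labelled male control were the highest for Saa4. Male BPSIP was the lowest group for Saa2, Saa3, Orm2, Lcn2, Lbp and Apcs, female E2 for Saa1, Saa4 and Orm1, and the female controls for Hp.

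**Figure D1:**
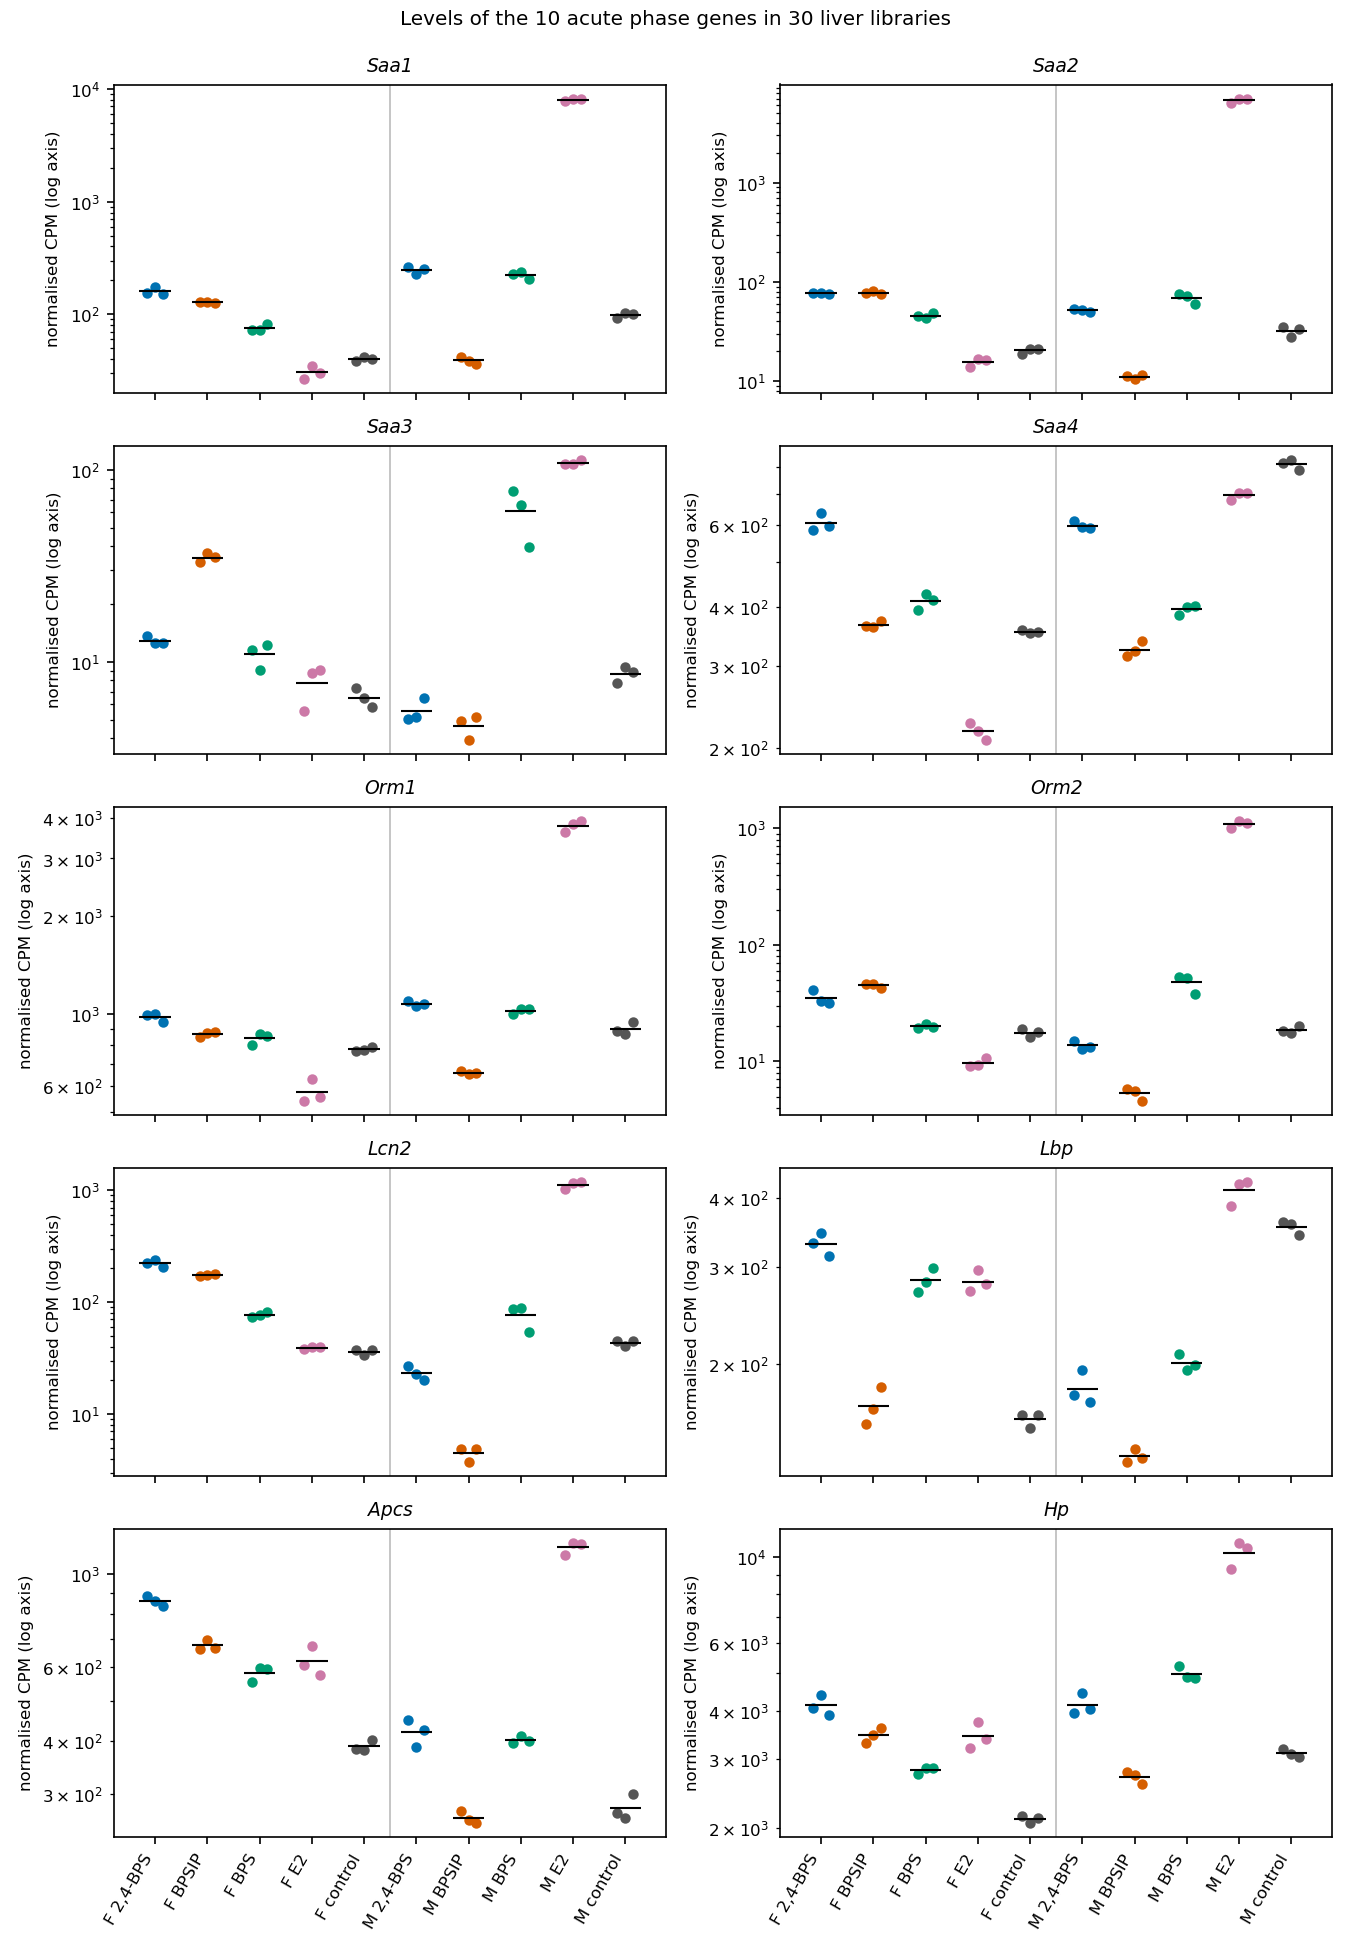
Normalised CPM (log axis) of each gene in the 3 libraries of each group, points for libraries and a line at the group mean, with the 5 female groups (F) left of the 5 male groups (M). The M control libraries are those whose label is in doubt. The male E2 points stand apart for Saa1, Saa2, Orm1, Orm2, Lcn2, Apcs and Hp, and the male BPSIP means are lowest for Saa2, Saa3, Orm2, Lcn2, Lbp and Apcs, with points that overlap another group's for Saa3 and Apcs.

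Placed low to high by group mean, Saa1 ran female E2, male BPSIP, female control, female BPS, labelled male control, female BPSIP, female 2,4-BPS, male BPS, male 2,4-BPS, male E2. Only male BPSIP with female control, and male BPS with male 2,4-BPS, overlapped in their libraries among the neighbours in that order. Saa2 ran male BPSIP, female E2, female control, labelled male control, female BPS, male 2,4-BPS, male BPS, female 2,4-BPS, female BPSIP, male E2. There the neighbours male BPS with female 2,4-BPS, and female 2,4-BPS with female BPSIP, overlapped. For the other 8 genes, 1 (Lcn2) to 5 (Saa3, Lbp and Apcs) of the 9 neighbouring pairs overlapped. Spread within a group was a coefficient of variation of 0.611% to 31.6%, the largest being Saa3 in male BPS livers.

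Saa1, Saa2, Orm2 and Lcn2 had the widest ranges, and Saa4, which lies in the same cluster on chromosome 7 as the other serum amyloid genes, a narrow one. The 250 bases before the RefSeq start of these 5 genes (build GRCm38.p6) are shown so that the first 4 can be read against Saa4. Capitals mark matches on either strand to TTGCNNAA, a letter pattern for C/EBP sites chosen with the sequences in view. The positions are Saa1 chr7:46742981-46743230 (minus strand), Saa2 chr7:46751583-46751832 (plus), Orm2 chr4:63362199-63362448 (plus), Lcn2 chr2:32387740-32387989 (minus) and Saa4 chr7:46732604-46732853 (minus).
Saa1: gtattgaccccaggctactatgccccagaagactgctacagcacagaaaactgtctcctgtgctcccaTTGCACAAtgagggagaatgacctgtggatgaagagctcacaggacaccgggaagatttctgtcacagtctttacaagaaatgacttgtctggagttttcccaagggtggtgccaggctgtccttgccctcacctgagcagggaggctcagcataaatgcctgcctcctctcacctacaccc
Saa2: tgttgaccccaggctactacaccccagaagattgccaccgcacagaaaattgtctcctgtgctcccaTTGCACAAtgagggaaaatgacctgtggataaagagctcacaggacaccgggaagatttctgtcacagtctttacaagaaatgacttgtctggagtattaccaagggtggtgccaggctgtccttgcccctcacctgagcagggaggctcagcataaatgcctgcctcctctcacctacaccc
Orm2: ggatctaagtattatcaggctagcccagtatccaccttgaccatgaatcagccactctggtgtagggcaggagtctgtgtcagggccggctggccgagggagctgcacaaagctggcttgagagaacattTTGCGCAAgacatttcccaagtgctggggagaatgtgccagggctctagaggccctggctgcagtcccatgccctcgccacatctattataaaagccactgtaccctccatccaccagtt
Lcn2: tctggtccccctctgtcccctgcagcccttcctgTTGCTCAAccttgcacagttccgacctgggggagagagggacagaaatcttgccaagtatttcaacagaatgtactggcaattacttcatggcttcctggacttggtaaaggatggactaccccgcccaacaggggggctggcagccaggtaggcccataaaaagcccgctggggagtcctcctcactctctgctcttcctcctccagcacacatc
Saa4: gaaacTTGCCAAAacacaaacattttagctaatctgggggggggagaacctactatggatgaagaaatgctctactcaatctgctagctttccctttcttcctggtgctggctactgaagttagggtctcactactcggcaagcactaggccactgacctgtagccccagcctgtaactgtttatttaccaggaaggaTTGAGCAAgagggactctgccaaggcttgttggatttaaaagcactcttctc

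The upstream runs of Saa1 and Saa2, which face away from each other on opposite strands, were identical at 238 of 249 aligned bases (95.6%). Each held TTGCACAA, starting at position -182 (Saa1) and -183 (Saa2), counted in bases before the start of the gene. Orm2 held TTGCGCAA at -120, Lcn2 held TTGCTCAA at -216, and Saa4 held TTGCCAAA at -245 and TTGAGCAA at -52. Saa3 held a match at -99, TTATGCAA, and Apcs held none. TTGAGCAA and TTATGCAA are given as they stand on the gene's strand, and the pattern is met on the opposite strand. Matches were thus present in 6 of the 7 genes with a listed promoter, and in 9.56% of 32851 promoters of the same length. The pattern was chosen with these sequences in view, and the 6 include the near-identical runs of Saa1 and Saa2. These figures are therefore no test of enrichment. Both Saa4, with a narrow range, and Saa2, with the widest, held the pattern. The STAT pattern TTCNNNGAA (7.02% of all promoters) and the interleukin-6 response element CTGGGAA (9.1%) matched only in Apcs among the 7, and the NF-kB pattern GGANTTTCC (1.07%) matched in none. These are letter matches in a window and no measure of binding. Mature sequences are also alike: GENCODE transcripts of Saa1 and Saa2 shared 94.4% of aligned bases, with a longest identical run of 99 bases. Orm1 and Orm2 shared 91.0%, with a run of 141 bases. How reads that match both genes were counted is not given in the sources used here, so the division of counts within each pair is uncertain.

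Female livers of dams given 2,4-BPS had higher levels of all 10 genes than female controls. Over all genes tested, 10.9% were higher in this comparison (edgeR quasi-likelihood test, Benjamini-Hochberg adjusted p under 0.05, here and below). Lcn2 showed the largest change. It was at 223, 240.0 and 207 CPM in the 2,4-BPS females, against 37.6, 33.6 and 37.5 CPM in female controls. The log2 fold change was 2.63 ± 0.06 (standard error, 3 libraries per group; adjusted p = 3.06e-27). The lowest exposed liver was thus above every control by a wide margin. Saa1 was at 156, 174 and 151 CPM in 2,4-BPS females, against 38.4, 42.1 and 40.2 CPM in controls (2.00 ± 0.07, adjusted p = 3.25e-21). Saa2 had 77.1, 78.1 and 75.0 CPM in 2,4-BPS females, against 18.8, 21.3 and 21.3 CPM in controls (1.91 ± 0.07, adjusted p = 3.33e-21). Apcs, Lbp, Orm2, Saa3 and Hp were 2.22-, 2.08-, 2.01-, 1.99- and 1.98-fold the controls. Saa4 (1.72-fold) and Orm1 (1.26-fold) moved least, and the groups did not overlap for any of the 10. In bulk liver, a change in the number of cells that express a gene and a change of RNA per cell cannot be told apart.

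BPSIP females had 8 of the 10 genes higher than female controls, where 19.4% of all genes were higher. Saa3 was the gene with the largest change, at 32.9, 36.7 and 35.0 CPM in BPSIP females, against 7.28, 6.45 and 5.79 CPM in female controls (2.42 ± 0.13, adjusted p = 5.01e-16). Lcn2 was at 171, 174 and 178 CPM in BPSIP females, 4.8-fold the controls (2.26 ± 0.06). Saa2 was 3.81-fold and Saa1 3.19-fold the controls, and Orm2 was at 46.0, 46.5 and 42.6 CPM in BPSIP females, against 19.0, 16.1 and 17.8 CPM in controls (1.35 ± 0.09, adjusted p = 7.15e-15). Apcs (0.79 ± 0.05) and Hp (0.72 ± 0.06) were also higher. Orm1 passed at 0.15 ± 0.05 (adjusted p = 0.023), a call that was lost when female control 1 or 2, or BPSIP female 2 or 3, was left out (adjusted p = 0.0794, 0.0677, 0.0615 and 0.0738). Saa4 and Lbp did not pass, with 95% intervals for the log2 fold change of -0.06 to 0.15 and -0.04 to 0.20.

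Female BPS livers again had 8 of the 10 genes higher, against 9.32% of all genes, with smaller changes. Saa2 was at 45.8, 43.1 and 48.7 CPM in BPS females and was 2.26-fold the controls (1.17 ± 0.07, adjusted p = 6.85e-15). Lcn2 was at 74.1, 76.9 and 81.0 CPM, or 2.15-fold the controls (1.10 ± 0.06, adjusted p = 3.27e-16). Saa1 was 1.89-fold, Lbp 1.80-fold, Saa3 1.70-fold, Apcs 1.5-fold, Hp 1.35-fold and Saa4 1.17-fold the controls. Orm1 (0.12 ± 0.05, adjusted p = 0.126) and Orm2 (0.19 ± 0.09, adjusted p = 0.179) did not pass, though their libraries did not overlap with those of the controls.

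Female E2 livers split the 10 genes. Lbp, Hp and Apcs were higher than in female controls (0.82 ± 0.06, 0.71 ± 0.06 and 0.66 ± 0.05), where 10.4% of all genes were higher. Orm2, Saa4, Orm1, Saa1 and Saa2 were lower (log2 fold changes -0.86, -0.71, -0.44, -0.40 and -0.39), where 10.6% were lower. Orm2 was at 9.18, 9.40 and 10.6 CPM in E2 females, against 19.0, 16.1 and 17.8 CPM in female controls. Saa1 was at 26.8, 35.0 and 30.1 CPM in E2 females, against 38.4, 42.1 and 40.2 CPM in controls, so each exposed liver was below each control. Lcn2 did not pass, with an interval of -0.02 to 0.24. Saa3 had 5.52, 8.71 and 9.02 CPM in E2 females, overlapping with controls (adjusted p = 0.235). Without E2 female 1, the low one, its log2 fold change was 0.45 and it passed (adjusted p = 0.00822).

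**Figure D2:**
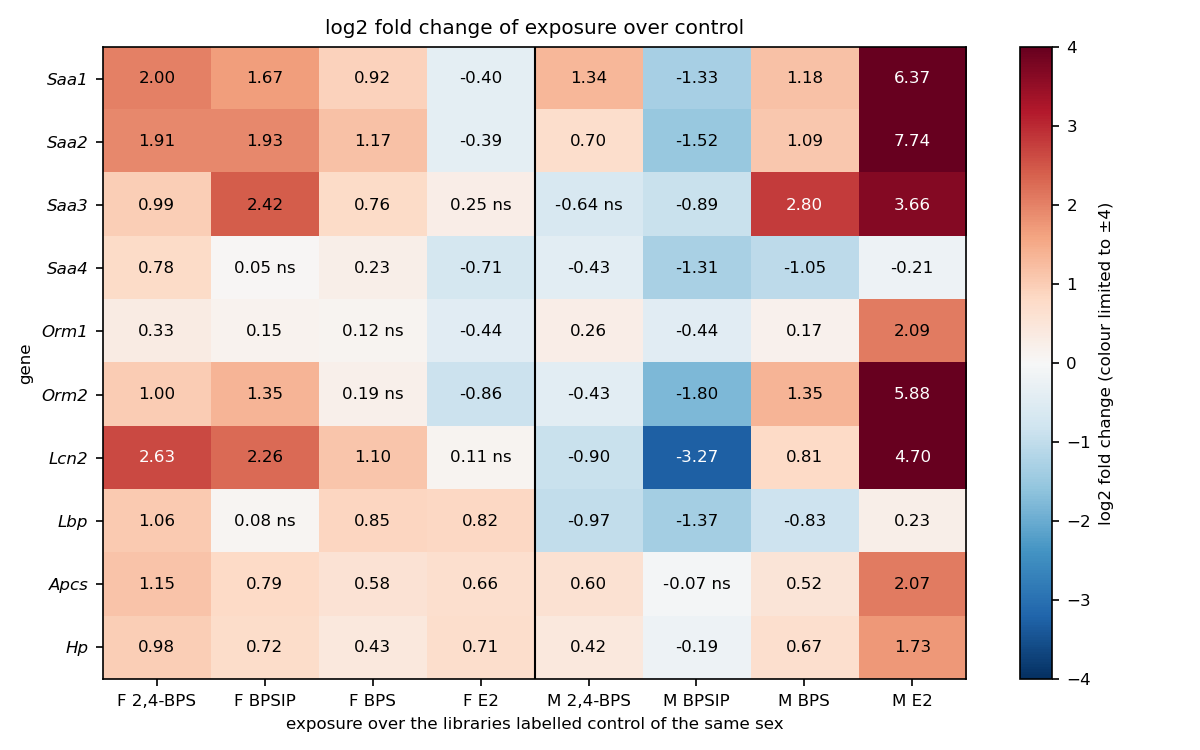
Log2 fold change of exposed over control livers for 10 genes (down) in 4 female and 4 male comparisons (across), written in each cell, with ns for an adjusted p of 0.05 or more. Male columns use the libraries labelled male control. Females given 2,4-BPS have 10 positive cells, males given BPSIP have 10 negative cells, 9 of which passed, and the male E2 column holds the largest values, up to 7.74 for Saa2.

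Male E2 livers held the highest Saa1 and Saa2 levels of the series, 32.3- and 86.9-fold the next group. Saa1 was at 7799, 8223 and 8087 CPM in the E2 males, against 93.3, 102 and 99.9 CPM in the libraries labelled male control. The largest value in any library outside the E2 males was 265 CPM, in a 2,4-BPS male. The fold over the labelled controls was 82.5 (6.37 ± 0.07 on the log2 scale, adjusted p = 9.62e-27). Saa2 was at 6362, 7029 and 6964 CPM in the E2 males, against 35.0, 27.7 and 33.6 CPM in the labelled controls, a 213-fold difference (7.74 ± 0.12, adjusted p = 2.74e-13). Orm2 had 1004, 1159.9 and 1117 CPM in E2 males, against 18.1, 17.5 and 20.3 CPM in the labelled controls (59.1-fold). Lcn2 had 1018, 1161 and 1188 CPM in E2 males, against 44.7, 40.9 and 44.7 CPM in the labelled controls (26.1-fold). Every E2 male was thus more than an order of magnitude above every labelled control for these 4 genes. Saa3 was at 107, 107 and 113 CPM in E2 males, against 7.78, 9.40 and 8.83 CPM in the labelled controls (12.7-fold). Orm1, Apcs and Hp, which are abundant in all groups, were 4.25-, 4.19- and 3.32-fold the labelled controls, and Lbp 1.17-fold.

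Saa4 alone was lower in E2 males, at 678, 702 and 704 CPM against 815, 828 and 785 CPM in the labelled controls (-0.21 ± 0.04, adjusted p = 2.06e-05). In all, 9 genes were higher and 1 lower in this comparison, against 17.2% and 16.4% of all genes. Set against the mean of the other 3 exposed male groups, which takes no level from the doubtful libraries, all 10 were higher (17.3% of all genes were). Saa2 was then 201-fold, Orm2 72.5-fold, Saa1 62.6-fold, Lcn2 56.6-fold and Saa3 9.46-fold higher in E2 males. Saa4 turned to 1.65-fold higher (0.72 ± 0.03, adjusted p = 1e-29), and Lbp was 2.45-fold higher.

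The balance within gene pairs differed in E2 males too. Saa1 over Saa2, as a ratio of FPKM, was 0.702 in E2 males (range 0.687 to 0.726). In the other 3 exposed male groups the ratio averaged 1.94 to 2.84, in the labelled male controls 1.84, and in the 5 female groups 0.975 to 1.23. Which of the 2 transcripts was more abundant depends on the length used. At GENCODE lengths the ratio was 1.18 in E2 males (range 1.16 to 1.22), 3.26 to 4.77 in the other exposed male groups, 3.09 in the labelled male controls and 1.64 to 2.08 in the female groups, so E2 males were lowest at either length. Orm2 amounted to 24.5% of Orm1 by FPKM in E2 males (range 23.6 to 25.7%), against 0.686% to 4.42% as means of the other 9 groups. At GENCODE lengths these shares were 28.9% in E2 males, against 0.808% to 5.2%. These ratios rest on the authors' division of reads between near-identical transcripts and were not tested.

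**Figure D3:**
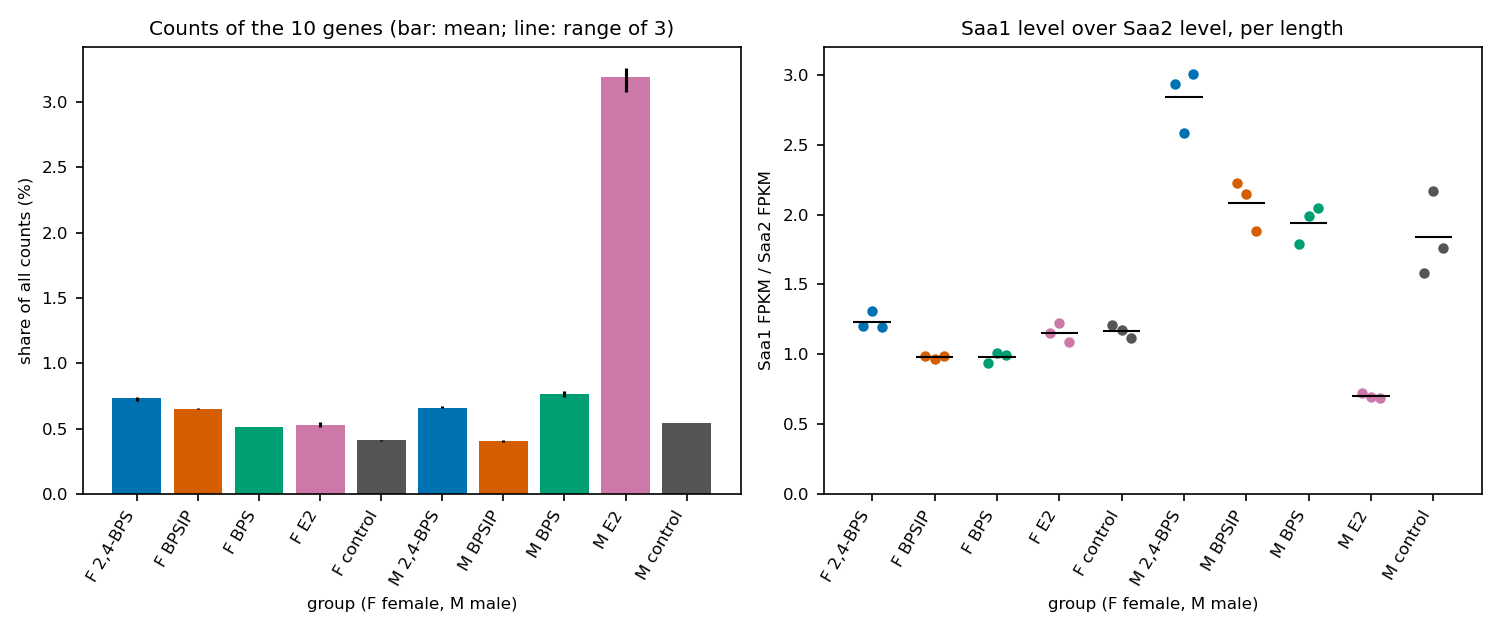
Left, share of all counts taken by the 10 genes in each group (bar for the mean, line for the range of 3 libraries). Right, Saa1 FPKM over Saa2 FPKM in each library, with a line at the group mean. F is female, M male, and M control are the libraries whose label is in doubt. Male E2 has the tallest bar, 3.19%, and the lowest mean ratio, 0.702.

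BPSIP had the opposite sign in males. Of the 10 genes 9 were lower in BPSIP males than in the labelled male controls, where 17.4% of all genes were lower, and none was higher. Lcn2 was at 4.89, 3.73 and 4.85 CPM in BPSIP males, against 44.7, 40.9 and 44.7 CPM in the labelled controls (-3.27 ± 0.23, adjusted p = 5.6e-07). Orm2 was at 5.81, 5.58 and 4.58 CPM in BPSIP males, against 18.1, 17.5 and 20.3 CPM in the labelled controls (-1.80 ± 0.17, adjusted p = 5.84e-06). These were the lowest levels of both genes in any group. Saa2 was at 11.2, 10.6 and 11.5 CPM in BPSIP males (-1.52 ± 0.11) and Saa1 at 41.9, 38.6 and 36.5 CPM (-1.33 ± 0.06). Lbp (-1.37), Saa4 (-1.31), Orm1 (-0.44) and Hp (-0.19) were lower as well. Saa3, with 4.89, 3.92 and 5.16 CPM in BPSIP males, passed at -0.89 ± 0.29 (adjusted p = 0.0329), and that call was lost whichever single liver of either group was left out (adjusted p 0.0512 to 0.111). Apcs did not pass (-0.07 ± 0.05, interval -0.16 to 0.02). Against the mean of the other 3 exposed male groups all 10 were lower in BPSIP males (15.4% of all genes were), Apcs included (-1.14, adjusted p = 4.57e-34). The E2 males are part of that reference.

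In BPS males 8 genes were higher than in the labelled controls (20.6% of all genes were) and 2 were lower (22.7%). Saa3 was at 77.3, 65.8 and 39.7 CPM in BPS males, against 7.78, 9.40 and 8.83 CPM in the labelled controls (2.80 ± 0.23, adjusted p = 1.35e-06). The 3 BPS males were uneven, the third being lowest for Saa3, Saa2, Orm2 and Lcn2 alike. Lcn2 had 87.3, 88.7 and 54.4 CPM in BPS males (0.81 ± 0.17, adjusted p = 0.00306), and Orm2 had 53.4, 52.1 and 38.1 CPM (1.35 ± 0.13, adjusted p = 6.88e-06). Saa1 was 2.26-fold, Saa2 2.13-fold, Hp 1.59-fold, Apcs 1.44-fold and Orm1 1.13-fold the labelled controls. Saa4 (-1.05) and Lbp (-0.83) were lower. With the other 3 exposed male groups as reference, 2 genes were higher and 6 lower in BPS males, against 16.9% and 18.9% of all genes. Saa1, Saa2, Orm1 and Apcs changed sign (-0.95, -1.21, -0.46 and -0.35), Orm2 and Hp no longer passed (0.13 and 0.02), and that reference contains the E2 males.

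Males given 2,4-BPS showed 5 genes higher (18.9% of all genes) and 4 lower (19.4%) than the labelled controls. Saa1 was at 265, 229 and 252 CPM in 2,4-BPS males, against 93.3, 102 and 99.9 CPM in the labelled controls (1.34 ± 0.06, adjusted p = 4.24e-15). Saa2 (0.70), Apcs (0.60), Hp (0.42) and Orm1 (0.26) were also higher. Lbp was at 176, 195 and 171 CPM in 2,4-BPS males, against 362, 359 and 343 CPM in the labelled controls (-0.97 ± 0.05), and Lcn2 at 26.9, 22.8 and 20.1 CPM in 2,4-BPS males, against 44.7, 40.9 and 44.7 CPM in the labelled controls (-0.90 ± 0.19, adjusted p = 0.00275). Saa4 was lower at -0.43. Orm2 passed narrowly (-0.43 ± 0.14, adjusted p = 0.0363) and lost the call when any single labelled control, or 2,4-BPS male 2 or 3, was left out, with adjusted p between 0.0422 and 0.127 over the 6 omissions. Saa3 did not pass (-0.64 ± 0.27, adjusted p = 0.0962), but did by DESeq2 (adjusted p = 0.0173) and in a fit of all 30 libraries (0.0314). Against the other 3 exposed male groups, 1 gene was higher in 2,4-BPS males and 9 were lower, against 13.5% and 12.3% of all genes. Saa1 turned to -0.73, Saa2 to -1.74, Orm1 to -0.35, Hp to -0.32, Apcs to -0.24 and Saa4 to 0.42. This reference, too, contains the E2 males, and a value against it averages the log2 differences from its 3 groups. For Saa1 in 2,4-BPS males these were 0.16 from BPS males, 2.67 from BPSIP males and -5.02 from E2 males.

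The 4 chemicals were given at the same dose and over the same time, and the pairs of exposed groups have no control on either side. Of 60 tests in 6 female pairs 53 passed, and of 60 in 6 male pairs 57 passed, against 31.4% and 31.1% of the tests over all genes. In females, 2,4-BPS exceeded its isomer BPS for 9 genes (10.2% of all genes were higher). The gap was largest for Lcn2 (1.53 ± 0.06) and Saa1 (1.08 ± 0.07), and Saa3 did not pass (interval -0.04 to 0.50, adjusted p = 0.244). Female BPSIP exceeded BPS for 7 genes (19.2%), with Saa3 at 1.66 ± 0.13, and was below it for Lbp (-0.77) and Saa4 (-0.18), where 20.1% of all genes were lower. Orm1 did not separate these 2 groups (interval -0.08 to 0.14). Between 2,4-BPS and BPSIP females, 7 genes were higher with 2,4-BPS (18.3%), led by Lbp (0.98 ± 0.06) and Saa4 (0.73 ± 0.05). Saa3 (-1.43 ± 0.13) and Orm2 (-0.35 ± 0.09) were lower with 2,4-BPS (17.3%), and Saa2 did not pass (interval -0.16 to 0.12). Against E2 females, all 10 genes were higher with 2,4-BPS (16.1%), 7 with BPSIP (19.7%) and 7 with BPS (13.4%). The exceptions were Lbp, lower with BPSIP (-0.74; 18.6% of all genes were lower), Hp, lower with BPS (-0.28; 12.2%), and 2 tests in each of the BPSIP and BPS pairs that did not pass.

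In males, the BPSIP livers were below the BPS livers for all 10 genes (16.8% of all genes were lower). The differences were widest for Lcn2 (-4.08 ± 0.23), Saa3 (-3.69 ± 0.25) and Orm2 (-3.14 ± 0.16), and least for Saa4 (-0.26 ± 0.04). Relative to BPSIP males, 2,4-BPS males were higher for 9 genes (15.8%), Saa1 by 2.67 ± 0.06, Lcn2 by 2.37 ± 0.24 and Saa2 by 2.22 ± 0.11. Saa3, with 5.05, 5.13 and 6.48 CPM in 2,4-BPS males and 4.89, 3.92 and 5.16 CPM in BPSIP males, did not separate them (interval -0.41 to 0.92). Relative to BPS males, 2,4-BPS males were lower for 6 genes (12.3%) and higher for 2 (15.2%). Saa3 (-3.44 ± 0.24), Orm2 (-1.78 ± 0.14) and Lcn2 (-1.71 ± 0.18) were the lowest. Saa4 was higher (0.61 ± 0.04), and 2 calls rested on single livers. Saa1 (0.16, adjusted p = 0.0301) was lost without 2,4-BPS male 1 or 3 or BPS male 3 (adjusted p up to 0.136) and by DESeq2 (0.0674), and Lbp (-0.14, adjusted p = 0.0195) without 2,4-BPS male 1 or 3 or BPS male 1 (up to 0.187). All 10 genes were lower than in E2 males with 2,4-BPS (14.9% of all genes), with BPSIP (14.1%) and with BPS (20.5%). The smallest difference was that of Saa4 with 2,4-BPS (-0.23 ± 0.04) and the widest that of Saa2 with BPSIP (-9.26 ± 0.13). Saa3 with BPS (-0.87 ± 0.19) lost its call in a fit of those 6 libraries alone (-0.85, adjusted p = 0.075).

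**Figure D4:**
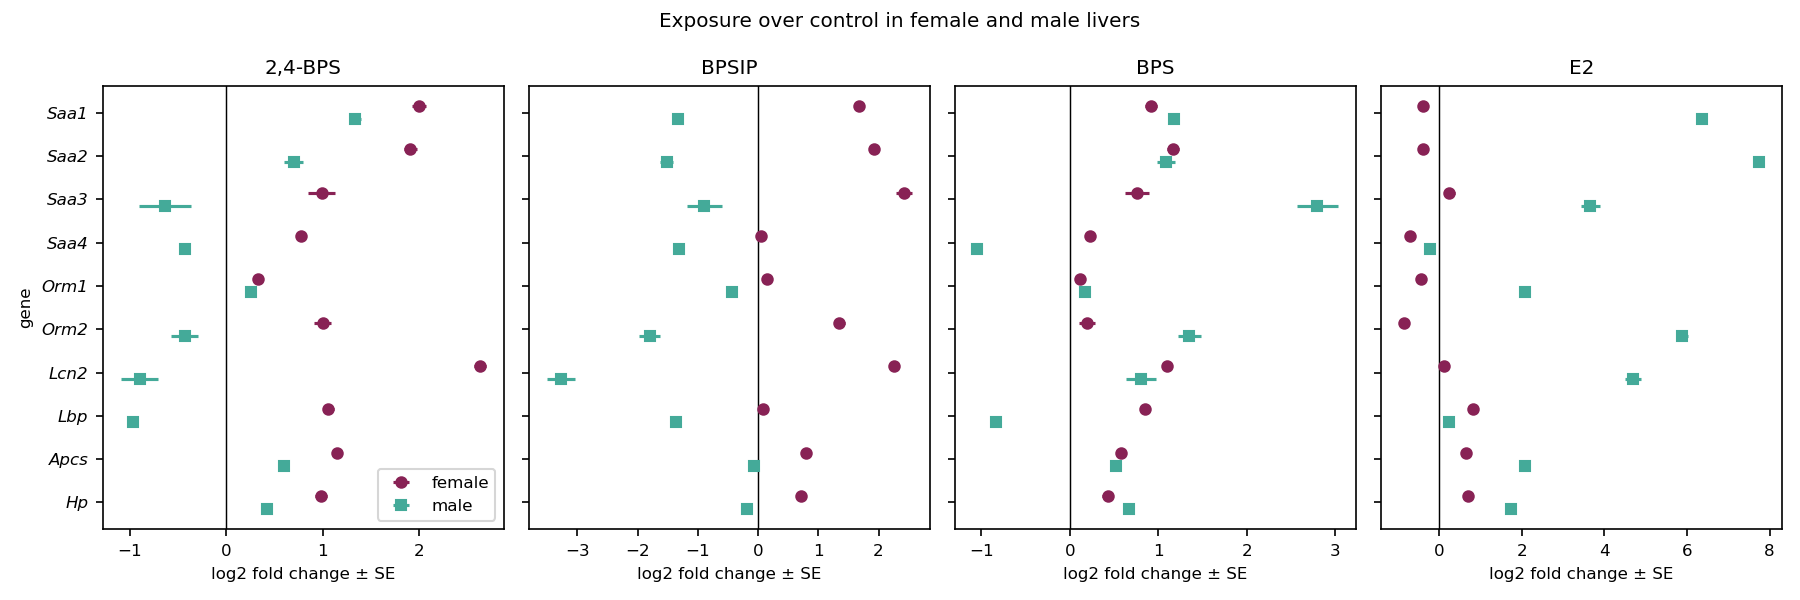
Log2 fold change of exposed over control livers with its standard error (horizontal axis, scaled separately per panel) for each gene (down), circles for females and squares for males, in 1 panel per chemical. Male values use the libraries labelled male control. In the BPSIP panel the squares lie left of the circles for all 10 genes, and in the E2 panel they lie right of the circles for all but Lbp.

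Females and males given the same chemical were compared directly. For the exposed groups this takes no level from the doubtful libraries, though they share the fit behind the standard errors and p-values. With BPSIP all 10 genes were higher in females (26.1% of all genes were). Lcn2 was at 171, 174 and 178 CPM in BPSIP females, against 4.89, 3.73 and 4.85 CPM in BPSIP males (5.28 ± 0.17, adjusted p = 2.81e-17). Orm2, Saa3 and Saa2 were 8.44-, 7.50- and 7.04-fold higher in females, Saa1 3.30-fold, and the other 5 genes by 1.13- to 2.56-fold. With E2 all 10 were lower in females (17.3%), with log2 differences of -8.76 ± 0.10 for Saa2, -8.04 ± 0.09 for Saa1, -6.81 ± 0.13 for Orm2 and -0.55 ± 0.05 for Lbp. With 2,4-BPS 6 genes were higher in females (23.9%), above all Lcn2 (9.60-fold), and Saa1 (-0.64) and Orm1 (-0.14) were lower (23.5%). With BPS 2 genes, Lbp and Apcs, were higher (19.4%) and 6 lower (20.1%), among them Saa3 (-2.47 ± 0.19) and Saa1 (-1.57 ± 0.07). Apcs was higher in females in every exposed group except E2. Between female control and the libraries labelled male control, Apcs was higher in females (0.49 ± 0.05; 14.6% of all genes were higher) and 6 genes were lower (15.6%).

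The difference between the sexes in the effect of an exposure over control was tested directly, and it uses the labelled male controls. For BPSIP the female effect exceeded the male effect for all 10 genes (19.0% of all genes did), by 5.54 ± 0.22 for Lcn2 and 3.47 ± 0.12 for Saa2. For 2,4-BPS 9 genes did so (18.0%), Lcn2 by 3.52 ± 0.19 and Lbp by 2.02 ± 0.08. For E2 the female effect was below the male effect for 9 genes (7.98%), and it exceeded the male effect for Lbp (8.93%). For BPS it exceeded the male effect for Saa4 and Lbp (16.0%) and fell short of it for Saa1, Saa3, Orm2 and Hp (14.9%). The call for Saa1 (-0.28) was lost by DESeq2 (adjusted p = 0.0551) and without any of 9 single livers (adjusted p 0.0138 to 0.148 over 12 omissions). With the mean of the other 3 exposed groups as reference in each sex, the female effect was above the male effect for 9 genes with BPSIP (21.8% of all genes), 10 with 2,4-BPS (14.3%), 5 with BPS (14.5%) and 0 with E2. It was then below for 4 genes with BPS (14.8%) and 10 with E2 (15.7%). Lbp no longer passed with BPSIP (0.03, adjusted p = 0.719) and turned with E2 (-1.11). For BPSIP, 2,4-BPS and BPS the male reference contains the E2 males, whose levels enter the female minus male value. Orm1 with 2,4-BPS went from 0.07 (adjusted p = 0.463) to 0.731, and Saa2 with BPS from 0.06 (adjusted p = 0.745) to 1.202. Lcn2 with BPS went the other way, from 0.27 (adjusted p = 0.306) to -1.226. These counts are therefore no check that is free of the E2 males.

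Other genes of the acute phase were read from lists beside the 10. List counts here and below stand beside shares of all genes over control, where these are given. No share is given for genes lower with 2,4-BPS, BPSIP or BPS in females, or higher with BPSIP in males. List counts in those directions have no share to be read against. In females 10.9%, 19.4%, 9.32% and 10.4% were higher with 2,4-BPS, BPSIP, BPS and E2, and 10.6% lower with E2. In males 18.9%, 20.6% and 17.2% were higher with 2,4-BPS, BPS and E2. Lower in males were 19.4%, 17.4%, 22.7% and 16.4% with 2,4-BPS, BPSIP, BPS and E2. Among 27 further acute phase genes in females, 24 rose and 1 fell with 2,4-BPS, and 9 rose and 7 fell with BPSIP. With BPS 15 rose and 2 fell, and with E2 17 rose and 1 fell. The median log2 fold changes were 0.47, -0.03, 0.20 and 0.31, beside medians over all genes between -0.014 and 0.0034. In 2,4-BPS females Serpina3g, a serpin, rose by 1.81 ± 0.08 and Steap4, a metalloreductase, by 1.05 ± 0.06. In BPSIP females the metallothionein genes Mt2 (-3.60 ± 0.07) and Mt1 (-2.41 ± 0.07) fell while Serpina3g rose (2.33 ± 0.08). In males against the labelled controls, 19 rose and 5 fell with E2, 10 rose and 13 fell with 2,4-BPS, 4 rose and 17 fell with BPSIP, and 6 rose and 20 fell with BPS. The medians were 0.41, 0.02, -0.22 and -0.34. Lrg1, a leucine-rich glycoprotein, was at 1068 to 1179 CPM in E2 males, against 298 to 309 CPM in the labelled controls (1.91, adjusted p = 2.54e-45), and the fibrinogen-like gene Fgl1 rose by 1.70. Of 12 negative acute phase proteins, those known to fall in the response, 4 rose and 1 fell in 2,4-BPS females, and 2 rose and 6 fell in E2 males. In the female BPSIP, BPS and E2 groups, 0, 2 and 5 rose and 6, 1 and 3 fell. In the male 2,4-BPS, BPSIP and BPS groups, 2, 3 and 2 rose and 9, 8 and 9 fell.

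Of the 33 listed genes of interleukin-6, interleukin-1 and NF-kB signalling tested in females, 11 rose and 0 fell with 2,4-BPS, 10 and 5 with BPSIP, 9 and 1 with BPS, and 5 and 3 with E2, with medians of 0.13, 0.01, 0.10 and 0.09. In males, 32 were tested, and 9 rose and 10 fell with 2,4-BPS, 6 and 6 with BPSIP, 3 and 14 with BPS, and 9 and 6 with E2, with medians of 0.01, -0.02, -0.16 and 0.03. The 6 lower genes with BPSIP and with E2 lay near the shares of all genes that were lower (17.4% and 16.4%). In E2 males Nfkbiz, which encodes a nuclear IkB protein, rose by 2.01 (adjusted p = 4.27e-23) and Socs3, a feedback inhibitor of cytokine receptors and a STAT3 target, by 1.54 (adjusted p = 1.34e-15). Socs3 was at 23.8 to 27.7 CPM in E2 males, 20.2 to 23.0 CPM in 2,4-BPS males, and 6.55 to 11.1 CPM in the labelled controls. The receptor gene Lifr was lower in E2 males (-1.19). Il6 itself had at most 0.376 CPM in any library. Il1b was at 6.30 to 9.32 CPM in E2 males, against 1.05 to 1.96 CPM in the labelled male controls. It was also above those controls in 2,4-BPS males (3.2 to 4.0 CPM), BPSIP males (4.65 to 5.22 CPM) and BPS males (4.13 to 4.99 CPM). In females it was at 7.84 to 10.1 CPM with BPSIP and 8.04 to 11.9 CPM with BPS. Female levels were 2.69 to 4.15 CPM with 2,4-BPS, 5.08 to 5.58 CPM with E2 and 3.12 to 4.77 CPM in controls.

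Among 18 partners and receptors of the 10 proteins, 17 were tested in females. There 9 rose and 0 fell with 2,4-BPS, 8 and 2 with BPSIP, 1 and 2 with BPS, and 1 and 3 with E2. Of all genes 10.9%, 19.4%, 9.32% and 10.4% were higher. Fpr2, a receptor for serum amyloid A, rose by 2.32 in BPSIP females (adjusted p = 7.85e-13) and by 1.06 in 2,4-BPS females. In males 0 rose and 7 fell with 2,4-BPS, 2 and 5 with BPSIP, 3 and 5 with BPS, and 4 and 4 with E2. Cd14, which receives lipopolysaccharide carried by LBP, rose by 1.56 in E2 males, and Cd163, the scavenger receptor for haemoglobin bound to haptoglobin, was lower there (-2.50). Cd163 was lower in all 4 male comparisons and in BPS females (-1.43).

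Markers of other cells moved with some of these groups, and their part in the results was not tested. Of 13 neutrophil markers tested in females 7 rose and 0 fell with BPSIP, where 19.4% of all genes were higher. None of these markers rose with the other chemicals, while 5, 12 and 8 fell with 2,4-BPS, BPS and E2. Of all genes 10.6% were lower with E2, and the shares lower with 2,4-BPS and BPS are not given. Their summed level was 71.0 to 90.9 CPM in BPSIP females, 33.7 to 40.3 CPM in 2,4-BPS females and 44.4 to 55.9 CPM in female controls. In males 11 of 12 rose and 0 fell with E2, where 17.2% of all genes were higher. The sum was 49.2 to 54.6 CPM in E2 males, against 8.65 to 17.7 CPM in the labelled controls. It was 6.86 to 11.9 CPM in BPSIP males, in which 1 fell, and 2 rose with each of 2,4-BPS and BPS. Ly6g, a defining neutrophil gene, had at most 0.261 CPM in any library and no counts in the labelled male controls, male 2,4-BPS or male BPSIP livers. Neutrophils and macrophages also express Lcn2 and Saa3.

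Of 16 Kupffer cell and macrophage markers, 12 rose with 2,4-BPS (10.9% of all genes) and 15 with BPSIP (19.4%) in females, with none lower. In females 1 marker rose with each of BPS and E2, with 6 and 8 lower. Their sum was 2113 to 2255 CPM in 2,4-BPS females, 2533 to 2831 CPM in BPSIP females and 1552 to 1608 CPM in female controls. In males 12, 12, 13 and 13 were lower with 2,4-BPS, BPSIP, BPS and E2 than in the labelled controls, and 0, 0, 1 and 1 higher. Of all genes 19.4%, 17.4%, 22.7% and 16.4% were lower. The sum of the markers was 969.8 to 1035 CPM in E2 males and 1347 to 1449 CPM in the labelled controls. It was 791 to 813 CPM in 2,4-BPS males, 863 to 934 CPM in BPSIP males and 875 to 903 CPM in BPS males. These male differences rest on the doubtful libraries as reference, and no other reference was tested for the lists. Skeletal muscle markers summed to 6.04 to 34.1 CPM in 2,4-BPS females, against 2.39 to 5.28 CPM in female controls, and to 11.0 to 23.4 CPM in 2,4-BPS males, against 2.34 to 3.39 CPM in the labelled controls.

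The 10 genes did not share a single pattern over groups. Correlations of log2 group means over the 10 groups, which are descriptive and lean on the male E2 group, were 0.99 for Saa1 with Orm1, 0.98 for Saa2 with Orm2 and 0.97 for Saa1 with Saa2. They were 0.12 for Saa4 with Apcs and 0.24 for Saa4 with Saa3. Against the mean scaled profile of all 10, Saa2 (0.977) and Orm2 (0.969) lay closest, and Saa4 (0.587) and Lbp (0.68) farthest. Of 3662 other genes with at least 1 CPM on average and a standard deviation of at least 0.3 over groups on the log2 scale, the 8 most like that profile were Tmem176a (r = 0.972), Hpx (0.964), Tmem176b (0.959), Isyna1 (0.936), C4bp (0.894), Itih3 (0.865), Cp (0.847) and Zc3h12a (0.846). Without the labelled male controls, over 9 groups, these were 0.972, 0.968, 0.961, 0.938, 0.935, 0.883, 0.85 and 0.847. Hpx encodes hemopexin, which binds haem, and Cp encodes ceruloplasmin, which carries copper.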

How the data were processed

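Liver RNA libraries were made with a SMARTER mRNA-Seq kit, per the labels' protocols. The authors deposited a table of raw read counts per gene, and HISAT2, HTSeq, R 3.2.0 and DESeq2 are named in the submitters' processing notes. Genome build, annotation, strand handling and other tool versions were not given in the sources used here. FPKM values were also deposited by the authors, equal to counts divided by library total and gene length (largest relative deviation 1.87e-08 at 50 counts or more), and served for levels between genes. All 17990 genes and 30 libraries were in both tables.

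The robust quasi-likelihood test of edgeR 4.0.16 (R 4.3.3; TMM scaling, filterByExpr) was run on the counts, in a fit of 15 libraries per sex, and of all 30 for differences between the sexes. The fits held 13874 genes in females, 13474 in males and 14131 in both. P-values were adjusted by the Benjamini-Hochberg method over all genes of a fit, with a threshold of 0.05, for 29 comparisons. Errors of log2 fold changes, called standard errors in the text and figures, were derived from the test. Each is the absolute log2 fold change divided by the square root of its quasi-likelihood F statistic. They are not standard errors of the fitted coefficients, and the intervals given rest on them. How far they depart from such standard errors, as for the largest changes, was not tested. The scripts were tested on simulated data. P-values reflect only how far apart the 3 libraries in each group lay. For the 10 genes the coefficient of variation ran from 0.611% (Saa4, female controls) to 31.6% (Saa3, BPS males). All 3 labelled male controls carried the same mixed pattern of Y-linked and female-specific genes. Whether libraries with the same group label came from separate animals was not tested. The p-values speak for animals only if they did. Replicates differed by more than sampling noise (chi-square per degree of freedom 5.52 to 23.57), and replicate numbers did not pair the samples. Alternatives were DESeq2 1.42.0, its size factors, no filter, a replicate block, other sets of libraries in the fit, another male reference, and leaving out each library.

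The 10 genes and all gene lists were chosen with earlier results of these data known. All 10 genes are named. From each other list the genes of smallest p in each direction could be named, and Il6, Il1b, Ly6g and the levels of Lrg1 and Socs3 were picked after their values were seen. The genes most like the 10 were ranked by Pearson correlation with their mean scaled profile (prior of 2 counts). Promoter sequences are from RefSeq, with 7 of the 10 genes matched.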

Additional observations from a re-analysis of the deposited data

Results flagged for a closer look

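Each of the following differences between the sexes passed the edgeR quasi-likelihood test of the difference itself (female effect minus male effect of the exposure over control, log2 scale, Benjamini-Hochberg adjusted over all genes). All of them use the libraries labelled male control. For 2,4-BPS, the female effect was above the male effect by 0.65 for Saa1, 1.22 for Saa2, 1.63 for Saa3, 1.21 for Saa4, 1.44 for Orm2, 3.52 for Lcn2, 2.02 for Lbp, 0.55 for Apcs and 0.56 for Hp. For BPSIP, the female effect was above the male effect by 3.01 for Saa1, 3.47 for Saa2, 3.32 for Saa3, 1.37 for Saa4, 0.6 for Orm1, 3.16 for Orm2, 5.54 for Lcn2, 1.46 for Lbp, 0.87 for Apcs and 0.92 for Hp. For BPS, the female effect was above the male effect by 1.25 for Saa4 and 1.65 for Lbp. For BPS, the female effect was below the male effect, with differences of -0.28 for Saa1, -2.06 for Saa3, -1.18 for Orm2 and -0.26 for Hp. For E2, the female effect was above the male effect by 0.61 for Lbp. For E2, the female effect was below the male effect, with differences of -6.75 for Saa1, -8.11 for Saa2, -3.4 for Saa3, -0.49 for Saa4, -2.51 for Orm1, -6.73 for Orm2, -4.58 for Lcn2, -1.39 for Apcs and -1.0 for Hp. Female BPSIP livers rose and male BPSIP livers fell for Saa1, Saa2, Saa3, Orm1, Orm2, Lcn2 and Hp. The adjusted p of the difference for Lcn2 with BPSIP was 2.47e-15, and for Saa2 with E2 it was 1.54e-30. With the mean of the other 3 exposed groups as reference, the difference for Lbp with BPSIP was 0.033 (adjusted p = 0.719), and those for Saa1 with BPS and Lbp with E2 changed sign.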

How the results depend on the processing

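The 29 counts of genes passing the test stayed, as totals over both directions, within 1.5 times their value in all 367 alternatives, while another male reference moved the split between directions (1 higher and 9 lower in 2,4-BPS males, 2 higher and 6 lower in BPS males). For single genes, 3578 of 3670 alternatives kept direction and side of the threshold, 46 lost a call, 15 gained one and 31 changed sign. With the mean of the other 3 exposed male groups as reference, 2,4-BPS males turned for Saa1 (-0.73), Saa2 (-1.738), Saa4 (0.421), Orm1 (-0.345), Apcs (-0.238) and Hp (-0.315). BPS males turned for Saa1 (-0.95), Saa2 (-1.213), Orm1 (-0.464) and Apcs (-0.345), and E2 males for Saa4 (0.721). The female minus male effect turned for BPS in Saa1 (0.748), Orm1 (0.538) and Lcn2 (-1.226), and for E2 in Lbp (-1.107), and lost its call for BPSIP in Lbp (0.033, adjusted p = 0.719). The reference used for 2,4-BPS, BPSIP and BPS males contains the E2 males, and their levels enter each of these values. Causes beyond the change of reference were not tested. Hp between 2,4-BPS females and males, which did not pass, turned without a filter (0.015).

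Leaving out single livers turned only values that had not passed: Saa2 in 2,4-BPS against BPSIP females (-0.051 to 0.002), Lbp in BPS against E2 females (-0.019 to 0.059), Orm1 in BPSIP against BPS females (-0.005 to 0.057) and Hp in BPSIP against E2 females (-0.038 to 0.074). Between females and males these were Hp (-0.059 to 0.044) and Saa4 (-0.023 to 0.046) with 2,4-BPS and Lcn2 with BPS (-0.174 to 0.137), and for the female minus male effect of BPS Saa2 (-0.016 to 0.174). Calls lost without a single liver, beside those named above, were Lbp in 2,4-BPS against BPS females (0.0505, without 2,4-BPS female 2), Orm1 in 2,4-BPS against BPSIP females (0.0602, likewise), Saa3 in BPS against E2 females (0.0712, without E2 female 1) and Orm1 between 2,4-BPS females and males (up to 0.0711, without female 3 or male 1). A replicate block ended the calls for Orm2 in 2,4-BPS males (-0.437, adjusted p = 0.0539) and Saa3 in BPSIP males (-0.896, adjusted p = 0.0533) and no other. Depth limits what can be said of Il6 and Ly6g, which had few or no counts.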
